A study of Homo sapiens with 15 samples.

Results

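The genes of cholesterol and fatty acid synthesis were followed in 3 fractions sorted from PEO1, a human cell line long established from ovarian cancer. Of 35 genes listed by name, 32 were measured by a probe set that names a single gene, among 19775 genes measured in all. CYP51A1 and FADS1 had only probe sets that also name another gene, and FDFT1 was not analysed here. By role, 17 of the measured members act in the route from acetyl units to cholesterol, 5 regulate or carry sterols, and 10 act in the synthesis of fatty acids.

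Parental PEO1 cells, kept in RPMI-1640 medium with fetal bovine serum and given no other treatment, were stained for the surface proteins CD90 and CD133 and sorted. The control fraction carried neither protein (CD90-/CD133-), the second carried CD90 alone (CD90+/CD133-) and the third carried both (CD90+/CD133+), with 5 arrays each and 15 in all. All 3 fractions came from 1 cell line, so no difference between donors enters the spread of the replicates. The methods speak of biological replicates for the CD90-/CD133- and CD90+/CD133- fractions, and where nothing says so for the third, its p-values measure only the spread between these arrays.

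Cells make cholesterol from acetyl-CoA through mevalonate, farnesyl diphosphate and squalene, and make fatty acids from the same acetyl-CoA through malonyl-CoA. Both routes are under the transcription factors SREBP-1 and SREBP-2, encoded by SREBF1 and SREBF2. When membrane sterol is low, SCAP escorts these factors to the Golgi, where they are cut and released to the nucleus, and when sterol is high the INSIG proteins hold them back. Because many genes of both routes share this control, they often move together in cultured cells.

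Intensity is the brightness of a probe set on a linear scale, already normalized between arrays by the authors. For tests, a floor of 16 was put under the intensities before the log2 scale was used, and the brightest probe set stood for each gene. A gene was called when its adjusted p from limma lay under 0.05, with Benjamini-Hochberg adjustment over all 19775 genes and the replicate number as a block. Of the 32 members, 31 had a mean log2 intensity above 6 and MVD did not. THY1, which encodes CD90, lay between 57.8 and 101 on CD90-/CD133- arrays, between 795 and 1221 on CD90+/CD133- arrays and between 728 and 2171 on CD90+/CD133+ arrays. PROM1, which encodes CD133, lay between 16 and 44.1, between 21.5 and 156 and between 429 and 1652 in the same order. Epithelial markers were bright in every fraction, with summed intensities of 41361 to 50876 on CD90-/CD133- arrays, 28217 to 37311 on CD90+/CD133- arrays and 26024 to 37683 on CD90+/CD133+ arrays. Of the 8 epithelial markers 3 (KRT8, KRT18 and KRT19) were lower and 1 (EPCAM) higher in CD90+/CD133- cells. In CD90+/CD133+ cells 4 were lower and 1 higher. Summed leukocyte markers were 148 to 166, 188 to 246 and 179 to 269.8 in the 3 fractions, with CD14 called higher, and summed fibroblast markers 348 to 413, 256 to 289 and 275 to 335. Of the fibroblast markers FAP had geometric means of 144, 35.4 and 36.5, and DCN 35, 43.9 and 39. PTPRC of leukocytes, CDH5 and KDR of endothelium, and COL3A1, LUM and PDGFRA of fibroblasts were at the floor of 16 on all 15 arrays. RNA quality, read as the log2 gap between the 3' and 5' control probe sets of GAPDH, was 0.023 to 0.093 on CD90-/CD133- arrays, 0.090 to 0.268 on CD90+/CD133- arrays and 0.012 to 0.118 on CD90+/CD133+ arrays. The same gap for ACTB, the beta-actin control, was wider, at 1.31 to 2.17, 1.82 to 3.31 and 1.03 to 2.76 in the same order.

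Against CD90-/CD133- cells, 10 of the 17 measured sterol genes and 4 of the 10 measured fatty acid genes were lower in CD90+/CD133- cells. HSD17B7, PMVK, FDPS and HMGCS1 led, at 2.75, 2.33, 2.09 and 1.99-fold lower (5 arrays per fraction, standard errors given with each gene). On the fatty acid side FASN, ACACA and ELOVL6 were no longer called with the mean of their probe sets. Of the 32 members 16 were lower and 2, AACS and ELOVL5, were higher by limma at adjusted p under 0.05, while 14 did not pass. Over all genes 17.6% were called lower and 14.8% higher, and over the 9988 brighter genes (mean log2 intensity above 6), to which 31 members belong, 27.5% were lower and 25.3% higher. The median log2 change was -0.37 over the members, 0 over all genes and -0.03 over the brighter genes. Intensities on the CD90+/CD133- arrays lay wholly below those on the CD90-/CD133- arrays for 7 members. The same held for 8.26% of all genes and 1265 of the 9988 brighter genes. Averages of linear intensity were at least 1.5-fold lower for 11 members, against 6.89% of all genes and 920 of the 9988 brighter genes. Without the replicate block 10 members were lower and 2 higher, and 11.9% of all genes were lower. Summed epithelial markers were lower on CD90+/CD133- arrays, though EPCAM was called higher, and the GAPDH and ACTB gaps reached higher there. Their part in these counts was not tested. Fewer cells of a type and less RNA per cell cannot be told apart in such bulk samples.

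In CD90+/CD133+ cells, against the same CD90-/CD133- arrays, 15 members were lower, 3 higher (AACS, ELOVL5 and NSDHL) and 14 not called. Over all genes 17% were lower and 14.2% higher, and over the brighter genes 26% and 24.6%. The members' median log2 change was -0.27. Intensities lay wholly below the control arrays for 5 members, against 8.78% of all genes and 1285 of the 9988 brighter genes. Without the replicate block the count fell to 7 lower and 3 higher, and 11% of all genes were lower. The GAPDH gap on CD90+/CD133+ arrays lay over nearly the same range as on CD90-/CD133- arrays and the ACTB gap over a wider one, while the summed epithelial markers were lower, and their part in the result was not tested. Because both comparisons use the same 5 control arrays, their values are given side by side and are no check on each other.

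**Figure D1:**
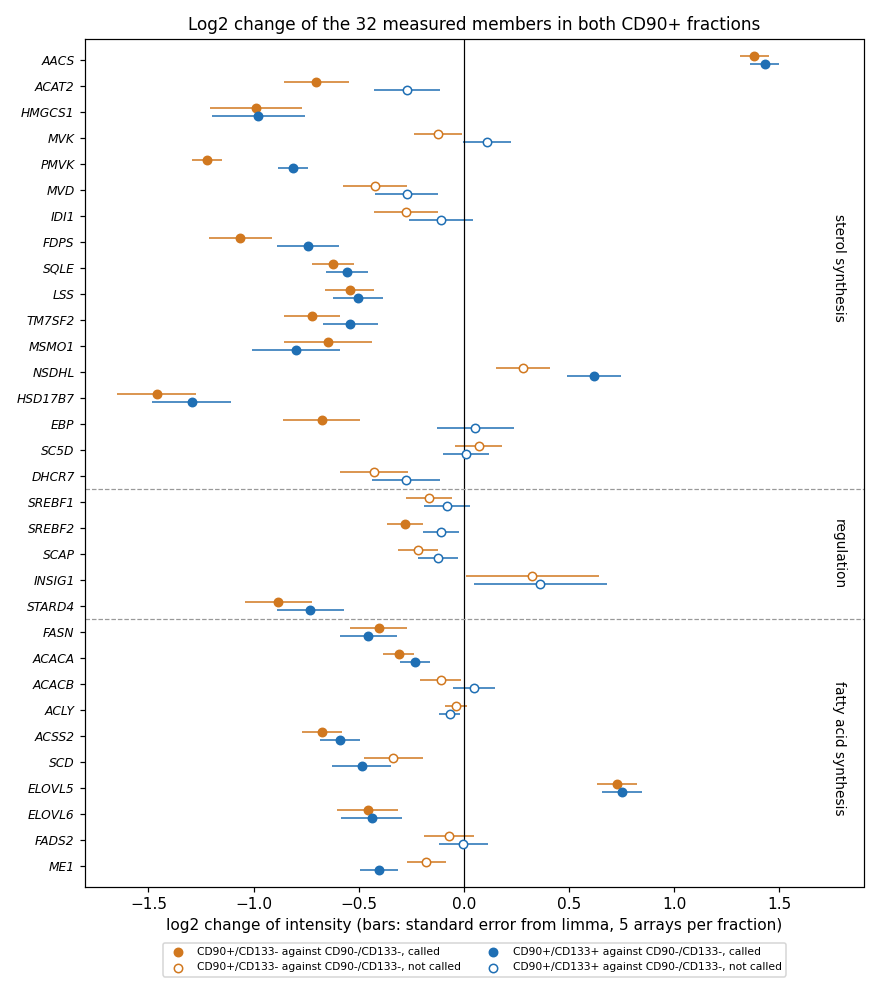
Log2 change of intensity of the 32 measured members in CD90+/CD133- cells (orange) and CD90+/CD133+ cells (blue) against CD90-/CD133- cells, with standard errors from limma over 5 arrays per fraction; filled points passed adjusted p under 0.05. Most sterol genes sit left of 0 in both fractions, HSD17B7 farthest at -1.46 and -1.29, and AACS and ELOVL5 sit right of 0.

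Promoter sequence was read for members that moved, since SREBP works through promoter elements with cooperating factors such as NF-Y at CCAAT letters and SP1 at GGGCGG letters. Windows of 250 bases before and 50 after the start were taken from RefSeq (GRCh38.p14), and 29 of the 32 measured members had one. In capitals are all matches, on either strand, of TCACNCCAC (a sterol response element), CACGTG (an E-box), CCAAT and GGGCGG. The first 3 are genes that fell in both CD90+ fractions, SREBF2 is the regulator, and AACS and ELOVL5 rose. They lie at chr1:155308616-155308915 on the plus strand (FDPS), chr1:162790452-162790751 on the plus strand (HSD17B7), chr5:111512486-111512785 on the minus strand (STARD4), chr22:41832855-41833154 on the plus strand (SREBF2), chr12:125065185-125065484 on the plus strand (AACS) and chr6:53348901-53349200 on the minus strand (ELOVL5).
FDPS: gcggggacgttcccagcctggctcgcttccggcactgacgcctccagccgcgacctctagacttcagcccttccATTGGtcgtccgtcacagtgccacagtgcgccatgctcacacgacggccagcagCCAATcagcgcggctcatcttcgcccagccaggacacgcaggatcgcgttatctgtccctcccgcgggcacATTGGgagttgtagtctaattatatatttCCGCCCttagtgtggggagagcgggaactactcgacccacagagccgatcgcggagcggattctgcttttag
HSD17B7: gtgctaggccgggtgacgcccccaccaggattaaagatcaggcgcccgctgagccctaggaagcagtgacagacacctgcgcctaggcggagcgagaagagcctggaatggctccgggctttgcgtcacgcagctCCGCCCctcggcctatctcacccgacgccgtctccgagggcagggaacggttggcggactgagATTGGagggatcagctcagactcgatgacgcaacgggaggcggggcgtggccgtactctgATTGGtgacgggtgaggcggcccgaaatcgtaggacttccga
STARD4: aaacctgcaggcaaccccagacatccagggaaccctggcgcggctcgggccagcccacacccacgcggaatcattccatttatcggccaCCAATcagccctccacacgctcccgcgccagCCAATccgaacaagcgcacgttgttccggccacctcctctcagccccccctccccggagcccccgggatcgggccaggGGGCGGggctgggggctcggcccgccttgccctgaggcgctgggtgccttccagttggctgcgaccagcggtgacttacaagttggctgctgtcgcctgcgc
SREBF2: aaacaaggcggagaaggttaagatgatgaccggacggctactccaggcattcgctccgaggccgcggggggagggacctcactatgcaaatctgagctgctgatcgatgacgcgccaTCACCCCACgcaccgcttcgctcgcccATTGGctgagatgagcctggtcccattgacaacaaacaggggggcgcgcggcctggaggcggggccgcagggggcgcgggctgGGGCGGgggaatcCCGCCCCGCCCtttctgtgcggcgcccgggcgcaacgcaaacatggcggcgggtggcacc
AACS: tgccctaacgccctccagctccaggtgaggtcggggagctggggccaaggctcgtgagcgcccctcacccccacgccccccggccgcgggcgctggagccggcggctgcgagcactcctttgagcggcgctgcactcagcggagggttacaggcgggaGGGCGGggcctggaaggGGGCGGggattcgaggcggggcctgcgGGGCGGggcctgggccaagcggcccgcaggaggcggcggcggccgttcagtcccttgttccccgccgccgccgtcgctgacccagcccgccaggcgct
ELOVL5: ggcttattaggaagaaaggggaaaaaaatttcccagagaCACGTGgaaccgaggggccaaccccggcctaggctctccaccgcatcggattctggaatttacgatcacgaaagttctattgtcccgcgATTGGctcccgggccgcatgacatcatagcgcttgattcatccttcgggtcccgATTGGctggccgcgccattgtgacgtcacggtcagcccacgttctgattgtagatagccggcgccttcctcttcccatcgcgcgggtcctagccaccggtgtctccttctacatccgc

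FDPS holds CCAAT letters 3 times, HSD17B7 and STARD4 each hold them 2 times, and each of these 3 holds GGGCGG once. PMVK, which also fell in both fractions and is not printed, holds no CCAAT and GGGCGG once. HMGCS1, also not printed, holds CCAAT 2 times in its first window and not in its second. SREBF2 was the 1 member whose window held TCACNCCAC, against 1.39% of the 27305 genes with a window. AACS held GGGCGG 3 times and no CCAAT, and ELOVL5 held CCAAT 2 times and the E-box once, with no GGGCGG. Counting a gene when any of its windows held the letters, CCAAT was found in 23 of the 29 members and 39.7% of all genes, and GGGCGG in 27 members and 48.3% of all genes. The E-box was found in 5 members and 8.77% of all genes. Among the 13 members lower in CD90+/CD133- cells that had a window, 11 held CCAAT, and among the 14 not called it was also 11. These are matches of letters and no measure of binding, and a sterol response element written with other letters would not be found.

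The route to cholesterol held the largest falls. AACS, which activates acetoacetate for lipid synthesis, and ACAT2, which condenses acetyl-CoA units, stand at its entry together with HMGCS1, which makes HMG-CoA. In CD90+/CD133- cells 10 of the 17 measured sterol genes were lower and 1 was higher, and in CD90+/CD133+ cells 8 were lower and 2 higher, with median log2 changes of -0.62 and -0.28. Of the brighter genes 27.5% and 26% were lower in these comparisons, and 25.3% and 24.6% higher.

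HMGCS1 intensity on replicates 1 to 5 was 213, 646, 348, 781 and 600.4 on the CD90-/CD133- arrays, 190.3, 223, 265, 268 and 242 on the CD90+/CD133- arrays and 184, 258, 202, 269.6 and 295 on the CD90+/CD133+ arrays. Replicates 2, 4 and 5 of the control fraction were high, whereas replicate 1 of it overlapped the CD90+ arrays. The log2 change was -0.99 (standard error 0.22, adjusted p = 0.00811) in CD90+/CD133- cells and -0.98 (standard error 0.22, adjusted p = 0.00897) in CD90+/CD133+ cells, lower in 5 of 5 pairs in both. A second, dimmer probe set of HMGCS1 fell as well, by 1.43 and 1.58 on the log2 scale. The call was lost without replicate 2 in the first fraction and without replicate 4 in the second. In a fit of the 2 fractions alone the first was lost as well (adjusted p = 0.0698 by limma), and both were lost with an unpaired t-test.

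ACAT2 was measured at 791, 1124, 824, 1192 and 854 on the CD90-/CD133- arrays, 621, 746, 607, 785 and 296 on the CD90+/CD133- arrays and 689, 882, 829, 949 and 609.8 on the CD90+/CD133+ arrays. Replicate 5 of the CD90+/CD133- fraction stood far below its neighbours, although the other 4 arrays also lay below all 5 control arrays. The log2 change was -0.70 (standard error 0.16, adjusted p = 0.00811) in CD90+/CD133- cells and -0.27 (standard error 0.16, adjusted p = 0.258) in CD90+/CD133+ cells, so the gene was lower in the former and did not pass in the latter. Without the replicate block its adjusted p in CD90+/CD133- cells was 0.0579, and in a fit of the 2 fractions alone 0.0719 by limma.

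AACS went the other way, with 165, 160.1, 192, 214 and 208 on the CD90-/CD133- arrays, 398, 511, 466, 558 and 512 on the CD90+/CD133- arrays and 445, 506, 544, 519 and 503 on the CD90+/CD133+ arrays. All 10 CD90+ arrays lay above all 5 control arrays. The gene had log2 changes of 1.38 (standard error 0.068, adjusted p = 4.07e-06) and 1.43 (standard error 0.068, adjusted p = 3.26e-06), that is 2.60-fold and 2.69-fold higher, and the call held under every alternative run. AACS has a single probe set, so the mean of probe sets could not change its values.

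The mevalonate steps followed. PMVK, phosphomevalonate kinase, gave 398, 446, 454, 394 and 516 on the CD90-/CD133- arrays, 164, 214, 180.0, 179 and 211 on the CD90+/CD133- arrays and 193, 247, 296, 235 and 292 on the CD90+/CD133+ arrays. No CD90+ array reached the lowest control array. PMVK was 2.33-fold lower in CD90+/CD133- cells, a log2 change of -1.22 (standard error 0.071, adjusted p = 8.48e-06), and 1.76-fold lower in CD90+/CD133+ cells, at -0.81 (standard error 0.071, adjusted p = 5.76e-05). It was also the single member called between both CD90+ fractions, as described further on. MVK, the kinase one step earlier, did not pass in either fraction (log2 changes -0.12 and 0.11, adjusted p = 0.514 and 0.601 by limma). MVD, the decarboxylase one step later, had geometric mean intensities of only 37.4, 27.9 and 31 in the 3 fractions and did not pass in either comparison (adjusted p = 0.0659 and 0.238 by limma), though without the block it was called lower in CD90+/CD133- cells (adjusted p = 0.0387).

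IDI1, the isomerase that turns isopentenyl into dimethylallyl diphosphate, had log2 changes of -0.27 and -0.11 and did not pass (adjusted p = 0.229 and 0.747 by limma). A probe set of IDI1 nearly as bright gave -0.30 in CD90+/CD133- cells, while 2 dimmer ones rose there, with log2 changes of 0.52 and 0.94. FDPS, farnesyl diphosphate synthase, lay at 1903, 2646, 2126, 3022 and 3239.8 on the CD90-/CD133- arrays, 1235, 1367, 1355, 1163 and 992 on the CD90+/CD133- arrays and 1385, 1517, 1595, 1532 and 1562 on the CD90+/CD133+ arrays. All 10 CD90+ arrays were below the lowest control array. FDPS was 2.09-fold lower in CD90+/CD133- cells by limma, a log2 change of -1.06 (standard error 0.15, adjusted p = 0.000712), and 1.67-fold lower in CD90+/CD133+ cells, at -0.74 (standard error 0.15, adjusted p = 0.00506). These calls of PMVK and FDPS against the control fraction held under every alternative run. Each has a single probe set, so the mean of probe sets could not change the values.

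The later steps lead from squalene to cholesterol. SQLE, squalene epoxidase, was at 761, 1495, 1204, 1863 and 1466 on the CD90-/CD133- arrays, 603, 1014, 879, 1044 and 776 on the CD90+/CD133- arrays and 711, 985, 861, 1077 and 839 on the CD90+/CD133+ arrays. Replicate 1 was the lowest array of every fraction, and the fractions overlapped. SQLE had log2 changes of -0.62 (standard error 0.10, adjusted p = 0.0015) and -0.56 (standard error 0.10, adjusted p = 0.00281), lower in 5 of 5 pairs in both, with dimmer probe sets of the gene at -0.76, -0.80 and -0.13 in CD90+/CD133- cells, the last of them not called (adjusted p = 0.931 by limma among all probe sets). Without the replicate block neither passed (adjusted p = 0.0695 and 0.11 by limma).

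LSS, lanosterol synthase, gave 259, 342, 309.5, 384 and 290.1 on the CD90-/CD133- arrays, 229, 242, 228, 270.3 and 135 on the CD90+/CD133- arrays and 197, 239.6, 202, 277 and 202 on the CD90+/CD133+ arrays. The lowest CD90+/CD133- value was replicate 5, well under the other 4. The log2 change was -0.54 (standard error 0.12, adjusted p = 0.00731) in CD90+/CD133- cells and -0.51 (standard error 0.12, adjusted p = 0.011) in CD90+/CD133+ cells. Without the block the second was no longer called (adjusted p = 0.0634 by limma), and the mean with 2 probe sets at or near the floor gave -0.25 and -0.17. The first was lost in a fit of the 2 fractions alone (adjusted p = 0.0587 by limma). The second was also lost without replicate 2, 3 or 4. Both were lost with the code in the sample labels as block in place of the replicate number. TM7SF2, a sterol reductase, was at 177, 372, 293, 484 and 667 on the CD90-/CD133- arrays, 137, 261, 197, 271 and 265 on the CD90+/CD133- arrays and 123, 277, 248, 283 and 401 on the CD90+/CD133+ arrays. The SD within the control fraction was 0.73 on the log2 scale, about the size of the difference, and replicate 1 was lowest in all 3. TM7SF2 fell in both comparisons, with log2 changes of -0.72 (standard error 0.13, adjusted p = 0.00291) and -0.54 (standard error 0.13, adjusted p = 0.0133), and neither was called without the block (adjusted p = 0.221 and 0.411 by limma).

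MSMO1, which removes the C4 methyl groups of sterols, gave 462, 1062, 655, 1176 and 1043 on the CD90-/CD133- arrays, 428, 585, 725, 530.4 and 438 on the CD90+/CD133- arrays and 416, 540.2, 433, 563 and 450.2 on the CD90+/CD133+ arrays. Control replicate 1 lay among the CD90+ arrays and replicates 2, 4 and 5 lay above them all. MSMO1 had log2 changes of -0.65 (standard error 0.21, adjusted p = 0.044) and -0.80 (standard error 0.21, adjusted p = 0.0182), and without the block the first was not called (adjusted p = 0.0825 by limma). The first call was lost without any 1 of 11 of the 15 arrays, with values between -0.84 and -0.49 over replicates or arrays left out, and the second without control replicate 2, 4 or 5 (-0.75, -0.70 and -0.67) or CD90+/CD133+ replicate 3 (-0.75). NSDHL, which acts with MSMO1 at the same methyl groups, had intensities of 569, 565, 425, 670.4 and 489 on the CD90-/CD133- arrays, 733, 854, 602, 782 and 404 on the CD90+/CD133- arrays and 828, 846, 879, 934 and 662 on the CD90+/CD133+ arrays. The log2 change was 0.28 (standard error 0.13, adjusted p = 0.143) in CD90+/CD133- cells, which did not pass, and 0.62 (standard error 0.13, adjusted p = 0.00611) in CD90+/CD133+ cells, higher in 5 of 5 pairs. A second probe set of NSDHL, somewhat dimmer, was called higher in both, with log2 changes of 0.43 and 0.53 (adjusted p = 0.00507 and 0.00179 by limma among all probe sets). For the brighter probe set the difference between the CD90+ fractions did not pass (log2 change 0.33, adjusted p = 0.172 by limma).

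HSD17B7, the ketoreductase of the same demethylation, had the largest fall among the members, with intensities of 589.8, 1454, 668, 1323 and 810.1 on the CD90-/CD133- arrays, 257, 315, 416, 359 and 321 on the CD90+/CD133- arrays and 267, 407, 369.9, 458 and 376 on the CD90+/CD133+ arrays. Every CD90+ array was below every control array. It was 2.75-fold lower in CD90+/CD133- cells and 2.45-fold lower in CD90+/CD133+ cells, with log2 changes of -1.46 (standard error 0.19, adjusted p = 0.000447) and -1.29 (standard error 0.19, adjusted p = 0.000855). Its single probe set is of a kind whose probes can match other transcripts, so related sequences may contribute to these values.

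EBP, the sterol isomerase, had CD90+ fractions that did not overlap, at 1162, 1423, 1071, 1561 and 1571 on the CD90-/CD133- arrays, 741, 1149.9, 872, 1022 and 552 on the CD90+/CD133- arrays and 1189, 1397, 1607, 1359 and 1439 on the CD90+/CD133+ arrays. Intensity was low in CD90+/CD133- cells and overlapped the control arrays in CD90+/CD133+ cells. The log2 change was -0.68 (standard error 0.18, adjusted p = 0.0207) in the former and 0.05 (standard error 0.18, adjusted p = 1) in the latter. The first call was lost without control replicate 4 (-0.65) or 5 (-0.55), in a fit of the 2 fractions alone (adjusted p = 0.0886 by limma) and with the mean of the 4 probe sets of EBP, where the change was -0.25 (adjusted p = 0.115 by limma). SC5D, a desaturase, did not pass in either fraction (log2 changes 0.07 and 0.01, adjusted p = 0.796 and 1 by limma). DHCR7, which makes cholesterol from its last precursor, had log2 changes of -0.43 and -0.28 (adjusted p = 0.0762 and 0.263 by limma), and its second probe set, tested among all probe sets, fell by 0.52 in CD90+/CD133- cells (adjusted p = 0.0316 by limma).

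**Figure D2:**
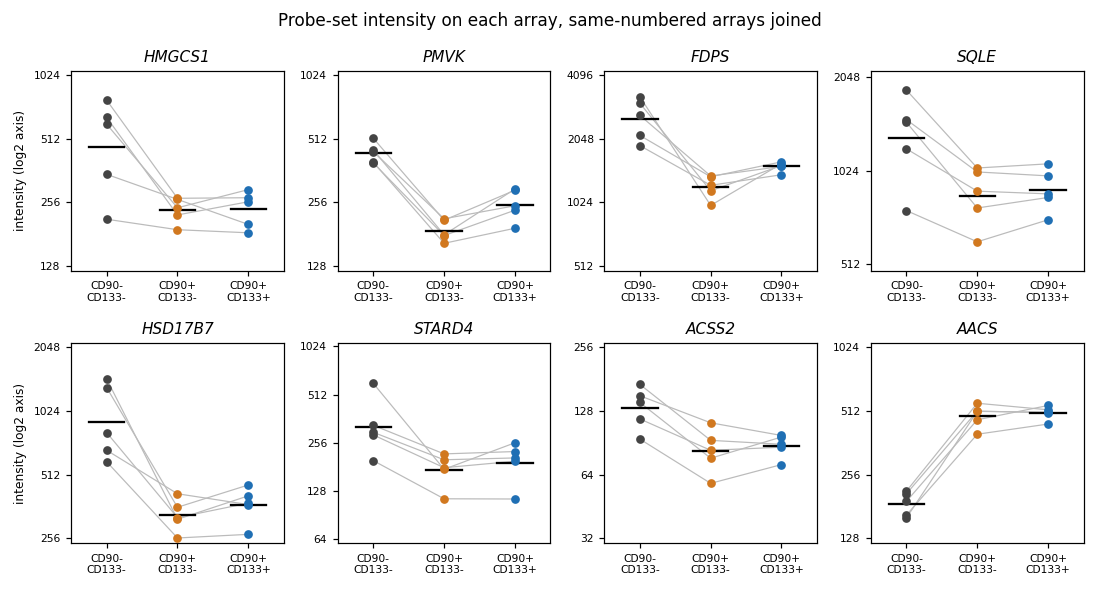
Intensity of 8 members on each of the 15 arrays, on a log2 axis, with grey lines joining arrays of the same replicate number across the fractions and black bars at the geometric mean. HMGCS1, PMVK, FDPS, SQLE, HSD17B7, STARD4 and ACSS2 fall from the control fraction along the lines, and AACS rises from a geometric mean of 187 to 486 and 502.

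Of the 5 members that regulate or carry sterols, 2 were lower in CD90+/CD133- cells and 1 in CD90+/CD133+ cells. These counts stand beside 27.5% and 26% of the brighter genes called lower. SREBF1 lay at 125, 177, 225, 214 and 266 on the CD90-/CD133- arrays, 159, 168, 176, 169 and 202 on the CD90+/CD133- arrays and 132, 178, 235, 177 and 221 on the CD90+/CD133+ arrays. The 3 fractions overlapped, and its log2 changes of -0.17 and -0.08 did not pass (adjusted p = 0.331 and 0.745 by limma). SREBF2 was at 101, 153, 133.1, 188 and 203 on the CD90-/CD133- arrays, 95.1, 141, 106, 165 and 127 on the CD90+/CD133- arrays and 94.2, 149.8, 125, 164 and 186 on the CD90+/CD133+ arrays. Here too the fractions overlapped, and replicate 1 was the lowest in each. SREBF2 was lower in CD90+/CD133- cells, by a log2 change of -0.28 (standard error 0.086, adjusted p = 0.0353), and was not called in CD90+/CD133+ cells at -0.11 (standard error 0.086, adjusted p = 0.437). The call was lost without any 1 of 7 of the 15 arrays, and without CD90+/CD133- replicate 5 the change was -0.18, still called. Without the block its adjusted p was 0.499 by limma. Dimmer probe sets of SREBF2 were at -0.47 and 0.04 in CD90+/CD133- cells (adjusted p = 0.0107 and 0.966 by limma among all probe sets).

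SCAP gave 316, 304, 324, 304 and 381 on the CD90-/CD133- arrays, 282, 289.7, 264, 302 and 261 on the CD90+/CD133- arrays and 291, 309, 352, 274 and 271 on the CD90+/CD133+ arrays. All CD90+/CD133- arrays were below all control arrays, by little. The log2 changes of -0.22 and -0.12 did not pass (adjusted p = 0.122 and 0.422 by limma). INSIG1, itself a target of SREBP that retains SCAP in the endoplasmic reticulum, was at 242, 706, 492, 684 and 547 on the CD90-/CD133- arrays, 792, 722, 645, 677 and 389 on the CD90+/CD133- arrays and 866, 888, 408, 740.2 and 478 on the CD90+/CD133+ arrays. Control replicate 1 was far below the other 4 control arrays, and the fractions overlapped. Its log2 changes of 0.33 and 0.36 had the widest standard errors of the members and did not pass (adjusted p = 0.556 and 0.5 by limma).

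STARD4, a carrier of cholesterol within the cell, was called in both comparisons. It lay at 199, 287, 298, 330.0 and 603 on the CD90-/CD133- arrays, 115, 179, 201, 219 and 175 on the CD90+/CD133- arrays and 114, 197, 206, 226 and 257 on the CD90+/CD133+ arrays. Control replicate 5 was the highest array of all, while control replicate 1 was within the range of the CD90+ arrays. The log2 change was -0.88 (standard error 0.16, adjusted p = 0.00276) and -0.73 (standard error 0.16, adjusted p = 0.00767), lower in 5 of 5 pairs in both. The second was not called without the block (adjusted p = 0.106 by limma).

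**Figure D3:**
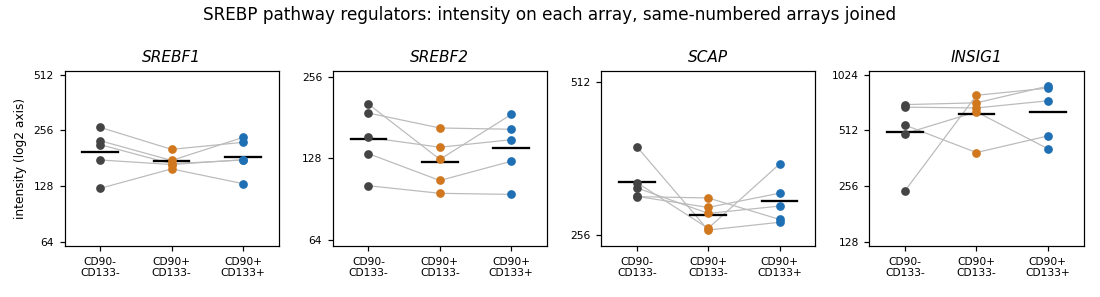
Intensity of SREBF1, SREBF2, SCAP and INSIG1 on each of the 15 arrays, on a log2 axis, with grey lines joining arrays of the same replicate number and black bars at the geometric mean. The fractions overlap for each of the 4 genes except SCAP between CD90-/CD133- and CD90+/CD133- arrays, and INSIG1 of control replicate 1 stands low at 242.

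Of the 10 measured fatty acid genes, 4 were lower and 1 higher in CD90+/CD133- cells, and 6 were lower and 1 higher in CD90+/CD133+ cells, with median log2 changes of -0.24 and -0.32. Among the brighter genes 27.5% were lower and 25.3% higher in the first comparison, and 26% and 24.6% in the second. ACSS2, which makes acetyl-CoA from acetate, lay at 94.4, 141, 118, 171 and 151 on the CD90-/CD133- arrays, 58.3, 76.6, 83.5, 93.1 and 113 on the CD90+/CD133- arrays and 71.5, 96.5, 86.4, 89.2 and 98.2 on the CD90+/CD133+ arrays. Control replicate 1 overlapped the CD90+ arrays. ACSS2 was lower, with log2 changes of -0.67 (standard error 0.095, adjusted p = 0.000725) and -0.59 (standard error 0.095, adjusted p = 0.00154), in 5 of 5 pairs in both. The second call held under every alternative run and the first was lost only with an unpaired t-test. ACSS2 has a single probe set, so the mean of probe sets could not change its values. ACLY, which makes acetyl-CoA from citrate and was the brightest member, did not pass (log2 changes -0.04 and -0.07, adjusted p = 0.743 and 0.415 by limma), although both of its dimmer probe sets fell in CD90+/CD133- cells, by 0.35 and 0.55.

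ACACA, the acetyl-CoA carboxylase that commits carbon to fatty acids, gave 611, 624, 740.0, 698 and 828 on the CD90-/CD133- arrays, 582, 569, 523, 582 and 554 on the CD90+/CD133- arrays and 548, 568, 633, 604 and 617 on the CD90+/CD133+ arrays. The CD90+/CD133- arrays lay wholly below the control arrays. Log2 changes of ACACA were -0.31 (standard error 0.072, adjusted p = 0.0102) and -0.23 (standard error 0.072, adjusted p = 0.0396). A dimmer probe set rose instead (log2 changes 0.29 and 0.65). With the mean of both probe sets the first call was lost at -0.01 (adjusted p = 1 by limma) and the second turned to 0.21, called higher (adjusted p = 0.00673). The first call was also lost in a fit of the 2 fractions alone (adjusted p = 0.0845 by limma), and the second call was lost without any 1 of 8 of the 15 arrays, with values between -0.27 and -0.17 over replicates or arrays left out. ACACB, the mitochondrial form, did not pass (log2 changes -0.11 and 0.05, adjusted p = 0.506 and 0.915 by limma). FASN, fatty acid synthase, was at 347, 352, 299.9, 497 and 383 on the CD90-/CD133- arrays, 356, 279.6, 239, 337 and 214 on the CD90+/CD133- arrays and 279, 287, 281, 267 and 241 on the CD90+/CD133+ arrays. The CD90+/CD133+ arrays lay wholly below the control arrays. FASN changed by -0.41 (standard error 0.13, adjusted p = 0.0486) and -0.45 (standard error 0.13, adjusted p = 0.0317), and the calls were lost without any 1 of 11 and 7 of the 15 arrays, with ranges of -0.52 to -0.30 and -0.54 to -0.34 over replicates or arrays left out. Without the block neither passed (adjusted p = 0.0801 and 0.0535 by limma), nor with the mean of its probe sets, of which the dimmer one did not fall (log2 changes 0.04 and 0.10).

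The desaturases and elongases differed among themselves. SCD, which introduces the first double bond, gave 1113, 2199, 1965, 1918 and 3639 on the CD90-/CD133- arrays, 784, 2179.8, 1797, 1779 and 1920.1 on the CD90+/CD133- arrays and 754, 2191, 1284, 1556 and 1889 on the CD90+/CD133+ arrays. Replicate 1 was the lowest of each fraction, and the fractions overlapped. Its log2 change was -0.34 (standard error 0.14, adjusted p = 0.108) and -0.49 (standard error 0.14, adjusted p = 0.0277), called in CD90+/CD133+ cells, and that call was lost without any 1 of 6 of the 15 arrays and without the block (adjusted p = 0.472 by limma). Its 3 dimmer probe sets were at -0.55, -0.14 and -0.41 in CD90+/CD133- cells, the first of them called (adjusted p = 0.033 by limma), and at -0.44, -0.28 and -0.43 in CD90+/CD133+ cells, the last of them called (adjusted p = 0.0461). FADS2, another desaturase, did not pass (log2 changes -0.07 and 0.00, adjusted p = 0.817 and 1 by limma).

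ELOVL6, which lengthens saturated fatty acids, was at 571, 498, 521, 547 and 589 on the CD90-/CD133- arrays, 491, 422, 397, 472 and 251 on the CD90+/CD133- arrays and 449, 458, 352, 466 and 308 on the CD90+/CD133+ arrays. Both CD90+ fractions lay below all control arrays. Its log2 change was -0.46 (standard error 0.14, adjusted p = 0.0398) and -0.44 (standard error 0.14, adjusted p = 0.0485), each lost without any 1 of 12 of the 15 arrays, and the first was -0.30 and the second -0.28 without control replicate 5. Both were lost without the block (adjusted p = 0.0804 and 0.0993 by limma) and with the mean of its probe sets (log2 changes -0.10 and -0.28). ELOVL5, which lengthens polyunsaturated fatty acids, rose, with 1169, 1422, 1575, 1472 and 1560.1 on the CD90-/CD133- arrays, 2411, 2589, 2173, 2746 and 2007 on the CD90+/CD133- arrays and 2284, 2633, 2343, 2415 and 2384 on the CD90+/CD133+ arrays. Every CD90+ array was above every control array. It was 1.66-fold and 1.68-fold higher, with log2 changes of 0.73 (standard error 0.096, adjusted p = 0.000504) and 0.75 (standard error 0.096, adjusted p = 0.000428). The calls held under every alternative run, with smaller changes of 0.32 and 0.44 for the mean of its probe sets. ME1, the malic enzyme that supplies NADPH, lay at 1206, 991, 849, 968 and 705 on the CD90-/CD133- arrays, 921, 933, 711, 1009.8 and 606 on the CD90+/CD133- arrays and 935, 851, 623, 842 and 411 on the CD90+/CD133+ arrays. It was not called in CD90+/CD133- cells (log2 change -0.18, adjusted p = 0.191 by limma) and was lower in CD90+/CD133+ cells at -0.40 (standard error 0.091, adjusted p = 0.0089), where replicate 5 was far below the rest. Without the block this call was lost (adjusted p = 0.289 by limma), and a second probe set of ME1 was at -0.17 there (adjusted p = 0.418 by limma).

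Between the CD90+ fractions 1 of the 32 members passed. PMVK was the 1 member called higher in CD90+/CD133+ cells and no member was called lower, against 2.3% and 2.31% of all genes by limma. Its log2 change was 0.41 (standard error 0.071, adjusted p = 0.0238), higher in 5 of 5 pairs, with overlapping fractions. That call was lost without CD90+/CD133- replicate 4 (0.42) or 5 (0.39), or CD90+/CD133+ replicate 3 (0.34), 4 (0.40) or 5 (0.40), and without the block (adjusted p = 0.159 by limma). EBP had the largest difference, 1.66-fold higher in CD90+/CD133+ cells, with fractions that did not overlap, and did not pass (log2 change 0.73, adjusted p = 0.0601 by limma). FDPS had fractions that did not overlap either (log2 change 0.32, adjusted p = 0.258). Over all 19775 genes, 332 lay wholly higher in CD90+/CD133+ cells and 281 wholly lower, and over the 9988 brighter genes 272 and 222. ACAT2, NSDHL, SREBF2, SCD and ME1, each called against the control in 1 of the CD90+ fractions, did not pass between them (adjusted p = 0.152, 0.172, 0.302, 0.648 and 0.191 by limma). At an unadjusted p under 0.05 in the same fit, 4 members were higher and 1 was lower. The share over all genes at that threshold was not counted, so nothing is read from these numbers. The members' median log2 difference was 0.08.

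**Figure D4:**
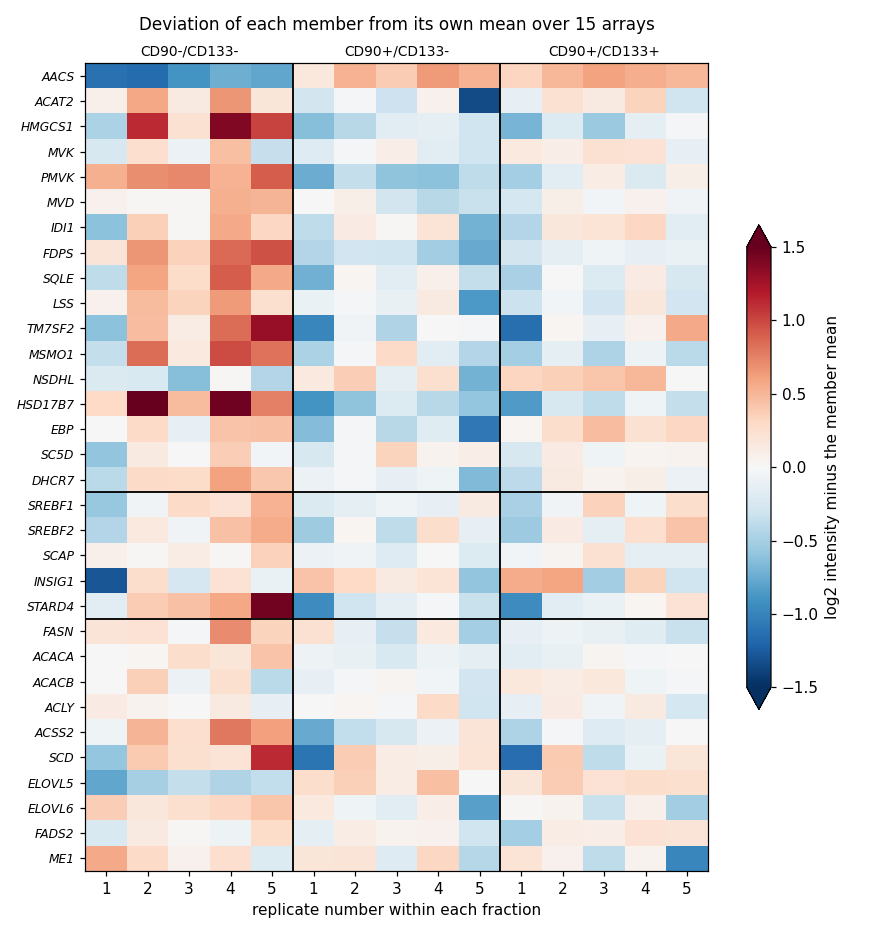
Deviation of log2 intensity of each of the 32 members from its mean over the 15 arrays, red above and blue below, with fractions in columns and roles in rows. The control block is mostly red for sterol genes except its replicate 1, and AACS and ELOVL5 show the reverse.

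Within a fraction the lowest values of many members fell on the same array. Control replicate 1 was the lowest of its 5 arrays for 20 of the 32 members and for 11 of the 17 sterol genes, while control replicate 4 was the highest for 12 of the 17. CD90+/CD133+ replicate 1 was the lowest of its fraction for 22 members and 14 sterol genes. In CD90+/CD133- cells the lowest value fell on replicate 5 for 17 members and on replicate 1 for 13. On replicate 1 the ACTB gap was 1.98 for the control fraction, 2.67 with CD90 alone and 2.76 with both proteins, the last the widest of its fraction. On replicate 3, the lowest array for 3, 1 and 1 members in the same order, the gap was 2.17, 3.31 and 1.76. On CD90+/CD133- replicate 5 it was 2.19. The part of this gap in the low values was not tested. The median deviation of the sterol genes from their fraction mean was -0.41 on control replicate 1 and 0.37 on control replicate 4, on the log2 scale. Median SD of log2 intensity over the sterol genes was 0.34 in CD90-/CD133- cells, 0.27 in CD90+/CD133- cells and 0.21 in CD90+/CD133+ cells, beside 0.19, 0.22 and 0.18 over the brighter genes. The control fraction had the highest SD of the 3 for 12 of the 17 sterol genes. A fit without the block leaves these shared shifts in the residual spread.

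Position in the genome was set beside the changes. For each member the median log2 change of the 30 nearest brighter genes on its chromosome was taken. AACS on chromosome 12 rose in a neighbourhood whose median was 1.49 in CD90+/CD133- cells, so its own 1.38 was 0.11 below that of its neighbours. NSDHL on the X chromosome lay among genes with medians of 0.62 and 0.67, and its own changes were 0.28 and 0.62. IDI1 and SCD on chromosome 10 had neighbours with medians of 0.65 and 0.53 in CD90+/CD133- cells, above their own values by 0.92 and 0.86. HSD17B7 lay among genes with a median of -0.52 and was lower than them by 0.94. HMGCS1, PMVK, FDPS and STARD4 had neighbours at 0.00, -0.21, -0.19 and 0.19, and differed from them by -0.99, -1.01, -0.87 and -1.07. ELOVL5 exceeded its neighbours by 0.52. Whether shifts of whole chromosome regions have a part in these changes was not tested.

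**Figure D5:**
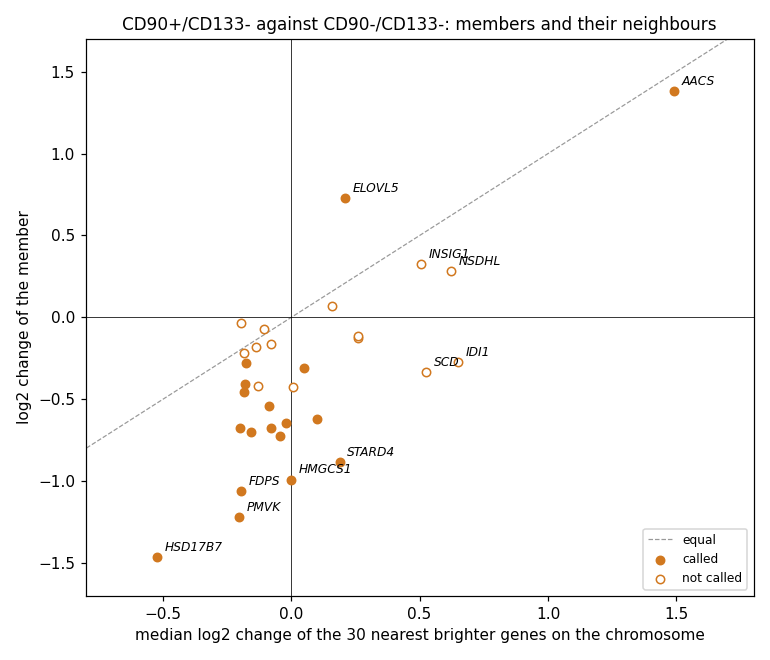
Log2 change of each member in CD90+/CD133- against CD90-/CD133- cells, plotted against the median log2 change of the 30 nearest brighter genes on its chromosome; filled points were called, and the dashed line marks equal values. AACS sits near the line at the upper right, and HMGCS1, PMVK, FDPS and STARD4 sit well below it.

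Genes near the members in the pathway, which are no members, are given beside the shares over all genes, 14.8% higher and 17.6% lower in CD90+/CD133- cells, and over brighter genes, 25.3% and 27.5%. Of 14 other measured genes listed as regulators of SREBP or of lipid synthesis, 5 were higher and 1 lower in CD90+/CD133- cells. Their median log2 change was 0.03. ERLIN1, a protein of the endoplasmic reticulum, rose by 0.93 and INSIG2, the second INSIG protein, by 0.73, while NR1H3, the sterol receptor LXR alpha, was at -0.65 (adjusted p = 5.19e-06, 0.00435 and 0.0158 by limma). In CD90+/CD133+ cells these genes stood at 1.01, 0.67 and -0.72, with 5 of the list higher and 3 lower. NR1H3 was not called in either fraction without the block (adjusted p = 0.101 and 0.0713 by limma). THRSP, a lipogenic regulator, was called higher in both (adjusted p = 0.00356 and 0.0371 by limma), but it lay at the floor of 16 on all 5 control arrays and exceeded it in 4 of 5 pairs, with geometric means of 50.1 and 32.3, so no size is given. Its second call was lost without the block (adjusted p = 0.125 by limma).

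Of 16 genes of sterol transport and isoprenoid branches, 4 were higher and 3 lower in CD90+/CD133- cells. SCARB1, a receptor for lipoproteins, rose by 1.55 and SOAT1, which esterifies cholesterol, by 0.70. PDSS2, of coenzyme Q synthesis, was at -1.10 and FNTA, a subunit of protein prenyltransferases, at -0.78 (adjusted p from 4.64e-05 to 0.000244 by limma over the 4 genes). These counts lie near the shares over brighter genes, and FNTA was not called without the block (adjusted p = 0.0577 by limma). Of 19 other fatty acid genes 4 were higher and 6 lower, led by ME2, the mitochondrial malic enzyme, at -1.27, and HACD2, a dehydratase of elongation, at 0.82, with ACSL5 at -0.66 and SLC25A1, the citrate carrier, at -0.59, the last not called without the block (adjusted p = 0.0505 by limma). Of 15 genes of glycerolipids and lipid droplets 3 were higher and 5 lower, among them PLIN3, a droplet coat protein, at -0.91, DGAT2, which makes triglyceride, at -0.69, CDS2 at -0.63 and AGPAT5 at 0.59. Medians of these 3 lists were 0.09, -0.04 and -0.19, beside -0.37 for the members. Chromosome neighbours were taken for members only, so position was not set beside changes of other genes, SCARB1 and ERLIN1 among them.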

How the data were processed

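The authors hybridized biotin-labelled RNA of sorted PEO1 fractions to HG-U133 Plus 2.0 arrays and normalized them by cross-correlation. What they deposited is a linear intensity for each probe set, never under 5. The software that summarised the probes is not given in the sources used here. Of 54675 probe sets, 41091 that name 1 gene were kept, giving 19775 genes, and the brightest probe set by mean log2 over all arrays stood for each gene. Values under 16 were set to 16, which understates changes of dim genes.

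All 15 arrays entered 1 linear model (limma 3.58.1, R 4.3.3, moderated 2-sided tests adjusted by Benjamini-Hochberg across the 19775 genes, 8 residual degrees of freedom) with the replicate number as a block, and tested on simulated data. Fractions of 1 number share a code in the labels, but replicates 4 and 5 carry the same code, so there are 4 codes for 5 numbers. Same-numbered arrays deviated together (lowest correlation 0.14 over all genes), least clearly for replicate 3. There CD90+/CD133- against control gave 0.142, with 0.118 the highest for differently numbered arrays. Between the CD90+ fractions these were 0.297 and 0.295. The design text speaks of triplicates, while the samples are numbered 1 to 5, and the numbers were used. No 2 arrays held identical values. The number of arrays limits the precision.

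Members and lists were chosen with earlier results of these data known. Members called in any comparison and 4 regulators are given on every array. From each other list at most the 4 called genes with the largest change in CD90+/CD133- cells are named. Alternatives were no block, the label code as block, only 2 fractions, other normalizations, probe set rules and floors, only brighter genes, an intensity trend, an unpaired t-test, a 1.5-fold threshold, and arrays or replicates left out. The second background of brighter genes was added after the data were seen.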

Additional observations from a re-analysis of the deposited data

Results flagged for a closer look

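Of 96 sets of 5 arrays (32 members in 3 fractions), 7 held 1 array whose gap to the next exceeded the limit for 5 values, where chance gives about 1 in 20 sets. Of these, 4 were on the same array, CD90+/CD133- replicate 5. There ACAT2 stood at 296 with the next array at 607, LSS at 135 with the next at 228, DHCR7 at 289.6 with the next at 419.6, and INSIG1 at 389 with the next at 645. SCAP was high on CD90-/CD133- replicate 5, at 381 with the next at 324. SCD was low on CD90+/CD133- replicate 1, at 784 with the next at 1779. FADS2 was low on CD90+/CD133+ replicate 1, at 59.7 with the next at 90.7.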

How the results depend on the processing

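Of 37 calls of members, 12 held under every alternative run: AACS, PMVK, FDPS, HSD17B7 and ELOVL5 in CD90+/CD133- cells, and these with NSDHL and ACSS2 in CD90+/CD133+ cells. AACS, PMVK, FDPS, HSD17B7 and ACSS2 have a single probe set each, so the mean of probe sets could not change their values. Without the replicate block, 10 members in place of 16 were lower in CD90+/CD133- cells, 7 in place of 15 in CD90+/CD133+ cells, and, between the CD90+ fractions, 0 in place of 1 were higher. Over all genes 11.9% and 11% were then lower against the control. With the label code as block 12 and 10 members were lower against the control, beside 15% and 14.5% of all genes. Fitted on the 2 fractions alone, 7 were lower in CD90+/CD133- cells and 13 in CD90+/CD133+ cells, beside 13.6% and 15.2% of all genes. An unpaired t-test gave 4 and 7 lower against the control, beside 9.08% and 10.1% of all genes. The methods list t-tests but name none for the arrays. At 1.5-fold with no test, 8 were lower in CD90+/CD133+ cells, beside 1414 of all 19775 genes and 898 of the 9988 brighter genes. Leaving out arrays or replicate numbers gave 11 to 17 lower members in CD90+/CD133- cells and 7 to 16 in CD90+/CD133+ cells, the 7 without replicate 4. Over all genes 13.1% to 17.4% were then lower in the first comparison and 12.9% to 17.8% in the second. In these runs 2 to 3 members were higher in CD90+/CD133- cells and 3 in CD90+/CD133+ cells.

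Between the CD90+ fractions 0 members were higher with the label code as block, with only 2 fractions and with the unpaired t-test, where no gene of the table was called either, and 2 were higher after median centring, with the mean of probe sets or with a floor of 1, and 3 among only brighter genes. Leaving out arrays or replicates gave 0 to 1. With the mean of probe sets the calls of EBP and ACACA in CD90+/CD133- cells, and of FASN and ELOVL6 in both fractions, were lost, and those of LSS, ME1 and ELOVL5 held at changes over 1.5 times smaller. ACACA in CD90+/CD133+ cells turned to 0.21 (adjusted p = 0.00673 by limma) with the mean of its probe sets, which includes 1 that rose. The other causes were not tested. Scaling moved the median of all genes by at most 0.04.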
